A study of Mus musculus with 18 samples.

Results

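The T cell receptor signalling unit followed here is encoded by Cd3e, Cd3d, Cd3g and Cd247, the coreceptor Cd4, the costimulator Cd28, the kinases Lck and Zap70, the adaptor Lat and the inhibitory receptor Cd5. They were taken by name, with earlier results of these data known, and are 10 of the 55487 genes in the deposited tables. All 10 were measured well above the expression minimum of 1 TPM (a length-normalized share of a library's RNA, scaled to a common total). The RNA came from mouse regulatory T (Treg) cells, the CD4-positive T cells that carry the transcription factor Foxp3 and restrain immune responses. The cells, labelled as freshly prepared, came from the peripheral blood, bone marrow, spleen, lymph node, lung and liver of wild-type mice that had received no treatment, with 3 libraries per site and 18 in all. All groups therefore share genotype and treatment and differ by site. The labels give no sex, age, strain, method of isolating the cells, pooling of mice or method of tissue dissociation, and nothing states that the 3 libraries of a site came from separate animals. P-values thus measure the spread between these libraries, which may be technical.

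When the receptor meets its ligand, Lck, held near the coreceptor Cd4, phosphorylates the tails of the CD3 subunits and of Cd247 (the zeta chain). Zap70 docks on the phosphorylated tails and phosphorylates Lat, on which the calcium and Ras branches of the response assemble. Cd28 supplies the second signal, and Cd5 sits beside the receptor and dampens it. Treg cells depend on this pathway for their maintenance and for suppression.

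Cd3g (chr9:44969572-44980431, minus strand), Cd3d (chr9:44981786-44987339, plus strand) and Cd3e (chr9:44998740-45009627, minus strand) lie within 40056 bases on chromosome 9 of GRCm38 (GENCODE M21), and Cd3g and Cd3d start 1355 bases apart on opposite strands. Cd247 is at chr1:165788681-165877277, Cd28 at chr1:60716800-60773359 and Zap70 at chr1:36761798-36782818, all on the plus strand. Lck is at chr4:129548344-129573641, Cd4 at chr6:124864692-124888221, Lat at chr7:126363824-126369570 and Cd5 at chr19:10717116-10739002, all on the minus strand. The exonic bases of Cd247 shared with Pou2f1 on the other strand and with the noncoding gene Gm16565 on the same strand sum to 3213. Whether strand was used in counting is not given in the sources used here, so reads in the bases shared with Pou2f1 could have been given to either gene. Strand cannot separate Cd247 from Gm16565. Pou2f1 had site means of 9.90 to 26.6 TPM and Gm16565 of 1.71 to 6.31 TPM, against 149 to 303 TPM for Cd247. Cd3e shares 135 exonic bases with Gm48719 on the other strand, which had site means of 3.20 to 28.6 TPM.

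RefSeq promoter windows of GRCm38.p6, from 250 bases before to 50 after a transcription start, were given for 8 of the 10 genes, Cd3e, Cd3d, Cd3g, Cd247, Lck, Zap70, Lat and Cd5, with 11 windows among them. The sequences below are the 250 bases before the starts of Cd247, Cd3e, Lck and Lat. They include every window with the letters marked in capitals. Of the windows without those letters, that of Lat is shown, and those of Zap70, Cd3g, Cd3d and Cd5 are not. Capitals mark the letters CAGGAAGT on either strand, a form of the site that ETS family factors bind. Numbering is from the start, with -1 the base just before it.
Cd247, chr1:165788431-165788680, plus strand: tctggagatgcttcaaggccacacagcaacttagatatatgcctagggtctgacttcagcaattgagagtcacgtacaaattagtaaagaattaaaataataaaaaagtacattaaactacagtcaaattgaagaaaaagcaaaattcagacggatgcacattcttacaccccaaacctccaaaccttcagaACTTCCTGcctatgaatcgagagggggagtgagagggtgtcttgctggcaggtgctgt
Cd3e, chr9:45009612-45009861, minus strand: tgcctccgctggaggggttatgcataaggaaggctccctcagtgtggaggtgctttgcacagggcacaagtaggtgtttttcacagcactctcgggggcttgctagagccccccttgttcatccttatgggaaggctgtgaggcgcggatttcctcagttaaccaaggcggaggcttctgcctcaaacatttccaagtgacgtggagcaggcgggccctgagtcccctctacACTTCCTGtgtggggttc
Lck, upstream start, chr4:129573642-129573891, minus strand: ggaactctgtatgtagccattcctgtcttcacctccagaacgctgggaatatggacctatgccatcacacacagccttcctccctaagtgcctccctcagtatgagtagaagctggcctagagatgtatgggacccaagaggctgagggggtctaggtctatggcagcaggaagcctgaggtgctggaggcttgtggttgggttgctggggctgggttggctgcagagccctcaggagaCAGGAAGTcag
Lck, downstream start, chr4:129558373-129558622, minus strand: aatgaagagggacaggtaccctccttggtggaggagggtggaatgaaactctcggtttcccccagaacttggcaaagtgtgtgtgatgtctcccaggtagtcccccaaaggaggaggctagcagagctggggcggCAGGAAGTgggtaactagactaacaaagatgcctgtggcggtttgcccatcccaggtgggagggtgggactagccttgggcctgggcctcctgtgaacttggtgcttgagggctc
Lat, chr7:126369569-126369818, minus strand: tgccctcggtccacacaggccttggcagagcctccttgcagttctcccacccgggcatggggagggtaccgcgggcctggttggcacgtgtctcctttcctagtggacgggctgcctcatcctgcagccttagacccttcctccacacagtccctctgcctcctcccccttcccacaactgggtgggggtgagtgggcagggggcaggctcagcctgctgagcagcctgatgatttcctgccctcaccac
Those letters stood in 4 of the 11 windows, at -58 in Cd247 (with a further match at 22), at -18 in Cd3e, at -11 before the upstream start of Lck and at -115 before its downstream start. Of 32851 RefSeq promoters of the same length, 3.33% held them. Matches to the RUNX letters TGTGGT stood in 3 windows (16.8% of all promoters), to the GATA letters AGATAA in 1, that of Cd3g (11.2%), to the E box CANNTG in 11 (72.3%), to the SP and KLF letters GGGCGG in 2 (35.7%) and to the TATA box letters TATAAA in 0 (13.6%). Both strands were searched for each motif, a base could count towards more than 1 motif, and the motifs were chosen after the levels were known. A match is a run of letters and was not shown to be bound in these cells.

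The labelled cell type was checked first. The summed level of 5 Treg genes (Foxp3, Il2ra, Ikzf2, Ctla4 and Tnfrsf18) was 468 to 474 TPM in blood libraries and between 880 and 2540 TPM in libraries of the other sites, and all 5 were at 1 TPM or more at every site. Foxp3, Ikzf2, Ctla4 and Tnfrsf18 had their lowest mean in blood. Il2ra did not, at 101 TPM in blood against 57.1 in bone marrow, 84.3 in liver and 76.3 in lung. In lung Ctla4 made up 1486 of the mean sum of 2496 TPM, and Foxp3 (230 TPM) was not above lymph node (239). Markers of other cells moved with site. The 13 myeloid markers summed to 26500 to 27360 TPM in blood and 38270 to 38520 TPM in bone marrow, against 1669 to 1719 in lung, 620 to 765 in spleen, 166 to 371 in liver and 46.4 to 82.6 in lymph node. The 7 platelet markers summed to 2209 to 2244 TPM in blood and at most 82.8 TPM in any library elsewhere, and the 7 erythroid markers to 72.8 to 75.5 TPM in lymph node, 10930 to 11970 in liver and 1426 to 6549 in the rest. The 10 markers of CD8 T and natural killer cells, which carry some of the 10 genes too, summed to 661 to 720 TPM in blood and 97.6 to 274 elsewhere. Of these 10 markers, 7 were highest on average in blood (Gzma at 329 TPM, for example). Cd8a and Cd8b1 were highest in lymph node (18.8 and 29.0 TPM, against 12.8 and 19.6 in blood), and Gzmb was highest in lung (141 TPM, against 28.0 in blood). B cell markers (7 genes) summed to 476 to 589 TPM in blood, bone marrow and spleen and 49.6 to 154 TPM in lymph node, liver and lung. The 6 lung epithelium markers summed to 223 to 297 TPM in lung and at most 14.2 TPM elsewhere. In bulk RNA, fewer T cells and less of a transcript per T cell cannot be told apart, and the part of other cells' RNA in the values below was not tested.

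All 10 genes differed among the 6 sites (limma F test over 6 sites, adjusted p between 1.62e-12 for Lck and 1.03e-06 for Cd247), where the same test called 68% of the 16694 genes tested. The mean level was highest in lymph node for 7 genes, in spleen for Cd3d and Lat, and in liver for Cd28. It was lowest in blood for 6 genes, in lung for Lck and Lat and in bone marrow for Cd247 and Cd28. The fold between the highest and the lowest site mean was 3.77 for Lck, 3.55 for Zap70, 3.47 for Lat and 3.29 for Cd28, against 2.04 to 2.60 for the other genes. The plot of TPM by library shows these orders. For the steps between neighbouring sites given next, the share of all genes tested that differed was 24.1% for bone marrow against spleen, 22.5% for bone marrow against lymph node, 34.5% for bone marrow against liver, 14.3% for spleen against lymph node, 31.3% for spleen against liver and 31.1% for lymph node against liver.

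**Figure D1:**
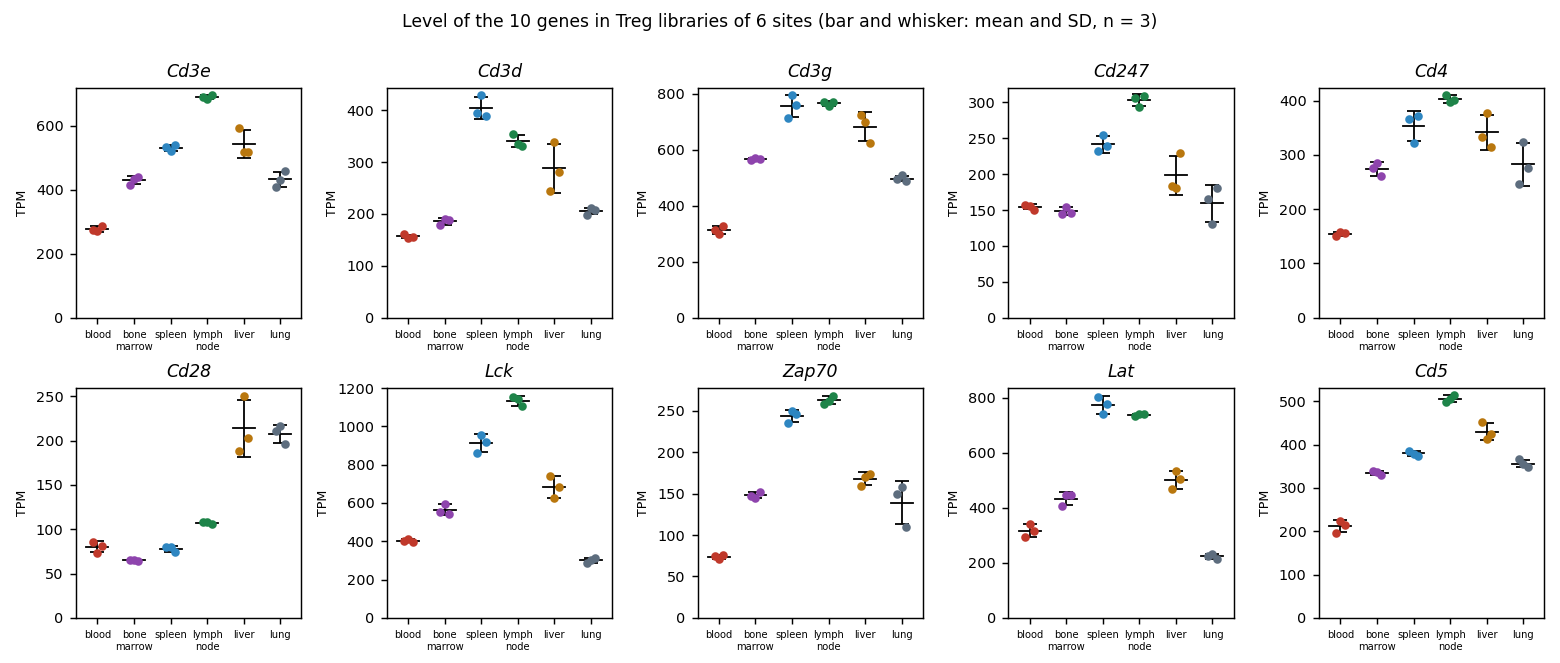
TPM (vertical axes, linear, from 0) of each of the 10 genes in each library of 6 sites (horizontal axes); points are libraries, the bar is the mean and the whisker the SD (n = 3). Lck and Lat were lowest in lung, Cd28 was highest in liver and lung, and most other genes were lowest in blood; several of the differences from blood were smaller or of the other sign after scaling to general T cell genes, as the plot of log2 fold changes shows.

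Cd3e, the epsilon subunit that pairs with Cd3d and with Cd3g, was at 691, 684 and 697 TPM in lymph node, 592, 517 and 517 in liver, 533, 520 and 540 in spleen, 409, 429 and 458 in lung, 416, 435 and 441 in bone marrow and 274, 272 and 286 in blood. The blood and lymph node libraries stood clear of all others at the low and high end. Of its neighbours in this order, liver and spleen (difference 0.03 on the log2 scale, limma adjusted p = 0.766) and lung and bone marrow (0.00, adjusted p = 0.982) did not differ beyond their spread. Spleen exceeded lung by 0.30 (adjusted p = 0.000313), a difference that turned to -0.05 after scaling to 9 general T cell genes, a scaling described further on. Cd3g, the gamma subunit, was at 770, 755 and 769 TPM in lymph node, 715, 793 and 761 in spleen, 724, 697 and 623 in liver, 564, 570 and 566 in bone marrow, 495, 508 and 487 in lung and 313, 300 and 327 in blood. Lymph node and spleen overlapped (0.02, limma adjusted p = 0.931). The excess of spleen over liver (0.15, limma adjusted p = 0.0379) was lost without any of 6 single libraries: spleen replicate 2 or 3, liver replicate 3 or any lymph node replicate (adjusted p 0.05 to 0.165). That call of Cd3g was also lost with no filter, library weights, the replicate block or median ratio factors (limma adjusted p 0.055 to 0.16).

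Cd3d, the delta subunit, had another order. Its TPM was 395, 429 and 388 in spleen, 354, 335 and 332 in lymph node, 245, 339 and 281 in liver, 198, 211 and 208 in lung, 178, 190 and 189 in bone marrow and 161, 154 and 155 in blood. Spleen stood clear above lymph node, but the difference of 0.25 on the log2 scale did not pass (limma adjusted p = 0.0681). Without liver replicate 1 or liver replicate 2, the lowest and highest of the liver libraries, Cd3d did pass (limma adjusted p = 0.0149 and 0.00795). It also passed with library weights, median ratio factors, removal of abundant RNA classes or no liver libraries (limma adjusted p 0.00227 to 0.021). Under the T cell scaling it did not (limma adjusted p = 0.0534). The excess of lymph node over liver (0.25, limma adjusted p = 0.0359) was lost without any lymph node replicate, liver replicate 1 or liver replicate 3 (adjusted p 0.0647 to 0.152), and under 5 other settings, the T cell scaling among them (adjusted p 0.0508 to 0.817). Measured against the geometric mean of the 3 CD3 genes in the same library, Cd3d was at 0.741 ± 0.024 in spleen and 0.522 ± 0.007 in bone marrow (SD, n = 3), with the other 4 sites between 0.582 and 0.657.

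Cd247, the zeta chain that carries most of the phosphorylation sites of the complex, moved least. It was at 307, 294 and 309 TPM in lymph node, 232, 255 and 239 in spleen, 184, 181 and 230 in liver, 166, 131 and 181 in lung, 157, 156 and 150 in blood and 145, 154 and 146 in bone marrow. Lung, blood and bone marrow overlapped, with neighbouring differences of 0.03 (limma adjusted p = 0.852) and 0.06 (adjusted p = 0.75). The steps above them were close to the threshold, and leaving out single libraries ended each call. Lymph node over spleen (limma adjusted p = 0.0456) was lost without any of 12 single libraries, namely all of spleen, lymph node, bone marrow and blood (adjusted p 0.0589 to 0.138). Spleen over liver (limma adjusted p = 0.0402) was lost without any of 13, namely all of spleen, lymph node and blood, liver replicate 1 or 2 and bone marrow replicate 1 or 3 (adjusted p 0.051 to 0.131). Liver over lung (limma adjusted p = 0.0249) was lost without liver replicate 3 or lung replicate 2 (adjusted p = 0.115 and 0.122) and turned to -0.12 under the T cell scaling. Median ratio factors ended all 3 of these calls of Cd247 (limma adjusted p 0.0543 to 0.568).

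Cd4, the coreceptor that binds class II major histocompatibility molecules, was at 411, 397 and 401 TPM in lymph node, 367, 321 and 372 in spleen, 332, 378 and 315 in liver, 247, 324 and 276 in lung, 276, 285 and 260 in bone marrow and 150, 157 and 157 in blood. Blood lay below every other library, and spleen, liver, lung and bone marrow formed a chain of overlapping groups. Liver over lung (0.28 on the log2 scale, limma adjusted p = 0.023) was lost without liver replicate 2, lung replicate 1 or lung replicate 3 (adjusted p 0.0579 to 0.112), with library weights (0.168) and with median ratio factors (0.0637), and turned to -0.16 under the T cell scaling. Cd5, whose level in T cells is known to follow the strength of receptor signalling, was at 499, 505 and 515 TPM in lymph node, 451, 414 and 425 in liver, 386, 380 and 373 in spleen, 366, 355 and 348 in lung, 339, 337 and 330 in bone marrow and 197, 223 and 215 in blood. No neighbouring pair of sites overlapped, although spleen against lung (0.09, limma adjusted p = 0.145) and lung against bone marrow (0.09, adjusted p = 0.159) did not pass. Under the T cell scaling Cd5 turned to -0.26 for spleen against lung (limma adjusted p = 0.00875), and lymph node over liver and liver over spleen no longer passed (adjusted p = 0.0878 and 0.387).

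Cd28, the receptor for the B7 ligands of antigen-presenting cells, had an order of its own. It was at 188, 250 and 203 TPM in liver, 211, 216 and 196 in lung, 108, 108 and 106 in lymph node, 85.8, 73.5 and 80.6 in blood, 79.9, 79.5 and 74.1 in spleen and 65.7, 65.6 and 64.0 in bone marrow. The liver and lung libraries overlapped each other (0.03, limma adjusted p = 0.844; -0.40 and 0.0102 under the T cell scaling) and stood clear above the remaining 12. Lung exceeded lymph node by 0.94 ± 0.09 on the log2 scale (SE, limma adjusted p = 3.49e-07), spleen by 1.41 ± 0.09 (adjusted p = 3.27e-09) and bone marrow by 1.66 ± 0.09 (adjusted p = 5.69e-10). Over all genes, 13.2%, 18% and 14.9% were higher in lung than in bone marrow, spleen and lymph node. Spleen over bone marrow (0.25, limma adjusted p = 0.0486) was the weakest of the steps that passed and was lost without any of 13 single libraries, namely all of spleen, lymph node and bone marrow, lung replicate 1 or 2 and blood replicate 1 or 3 (adjusted p 0.0504 to 0.128); after scaling to general T cell genes it turned, to 0.07 higher in bone marrow.

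Lck, the Src family kinase that starts the cascade, was the most abundant of the 10 genes in lymph node, spleen, liver and blood, while in lung it lay behind Cd3g, Cd3e and Cd5. It was at 1152, 1141 and 1104 TPM in lymph node, 863, 956 and 920 in spleen, 739, 624 and 682 in liver, 554, 597 and 545 in bone marrow, 400, 412 and 399 in blood and 286, 301 and 313 in lung. No neighbouring pair of sites overlapped, and each of the 5 steps passed (limma adjusted p 5.28e-05 to 0.00214 among the upper 3, 9.43e-06 for bone marrow over blood and 1.88e-05 for blood over lung). Under the T cell scaling the step from liver to bone marrow turned, to 0.14 higher in bone marrow, and the step between lymph node and spleen no longer passed. For Lck in spleen against lymph node the difference was then -0.16 (limma adjusted p = 0.337), and it was -0.12 with median ratio factors (adjusted p = 0.277). Lymph node exceeded lung 3.77-fold, or by 1.91 ± 0.06 on the log2 scale (SE, limma adjusted p = 6.01e-13).

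Lat, the membrane scaffold phosphorylated by Zap70, took nearly the same course. It was at 803, 740 and 779 TPM in spleen, 735, 741 and 740 in lymph node, 469, 533 and 503 in liver, 406, 447 and 448 in bone marrow, 294, 340 and 316 in blood and 225, 231 and 214 in lung. Spleen and lymph node overlapped (0.07 on the log2 scale, limma adjusted p = 0.579). Every later step passed. Liver over bone marrow (0.21, limma adjusted p = 0.0139) was lost without liver replicate 2 or bone marrow replicate 1 (adjusted p = 0.0581 and 0.0763) or with library weights (0.121) and turned under the T cell scaling, to 0.20 higher in bone marrow. Lung lay 1.79 ± 0.06 below spleen (SE, limma adjusted p = 2.47e-12), 1.16 ± 0.06 below liver (adjusted p = 1.01e-09) and 0.50 ± 0.06 below blood (adjusted p = 4.84e-06). Lck lay below the same 3 sites in lung, where spleen was higher by 1.60 ± 0.06 (adjusted p = 5.53e-12), liver by 1.18 ± 0.06 (adjusted p = 5.6e-10) and blood by 0.43 ± 0.06 (adjusted p = 1.88e-05). Lck and Lat were lower in lung than in blood, bone marrow, spleen, lymph node and liver alike, where 26.4%, 30.3%, 22.8%, 27.4% and 17.6% of all genes tested were lower in lung. These calls held under each scaling tried, but their size moved. Scaling to general T cell genes widened the gap between blood and lung to 0.82 for Lck and 0.89 for Lat. It narrowed that between liver and lung to 0.74 and 0.73, that between lymph node and lung to 1.41 and 1.22, and that between spleen and lung to 1.25 and 1.44, for Lck and Lat in turn.

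Zap70, the kinase between Lck and Lat, was not lowest in lung. It was at 258, 262 and 268 TPM in lymph node, 236, 250 and 246 in spleen, 159, 171 and 174 in liver, 147, 145 and 153 in bone marrow, 149, 158 and 109 in lung and 74.6, 71.3 and 76.0 in blood. Blood was clear below all other libraries, and the lung libraries spread most (coefficient of variation 18.7%). Spleen and liver (0.54 on the log2 scale, limma adjusted p = 0.000618) and lung and blood (0.88, adjusted p = 1.88e-06) were the steps that passed. Without lung replicate 3 or with median ratio factors, liver over bone marrow passed too (limma adjusted p = 0.0133 and 0.0161).

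Blood was then set against each of the 5 organs, to ask how circulating Treg cells differ from those of other sites. The 5 comparisons share the blood libraries. Against lymph node and against liver, all 10 genes were lower in blood (limma, adjusted p under 0.05), where 21% and 16.1% of all genes tested were lower and 16.4% and 23.3% higher. Against spleen 9 genes were lower (15.3% of all genes, with 20.1% higher) and Cd28 did not pass. Against bone marrow 8 were lower (18.8%), Cd28 was higher (13% of all genes were) and Cd247 did not pass. Against lung 7 were lower (17.3%), Lck and Lat were higher (26.4%) and Cd247 did not pass. The median difference of the 10 genes was -1.27 on the log2 scale against lymph node, -1.18 against spleen, -0.99 against liver, -0.65 against lung and -0.56 against bone marrow, beside medians of -0.15, 0.00, 0.07, 0.12 and -0.11 over all genes tested.

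Zap70 showed the widest gaps against lymph node, spleen and bone marrow, and Cd28 against liver (-1.40) and lung (-1.37). Zap70 in blood lay below lymph node by 1.82 ± 0.10 on the log2 scale (SE, limma adjusted p = 4.54e-10), a ratio of means of 0.282, and below spleen by 1.71 ± 0.10 (adjusted p = 1.16e-09). The gap of Zap70 was 1.17 ± 0.10 to liver, 0.99 ± 0.10 to bone marrow and 0.88 ± 0.10 to lung (adjusted p 8.46e-08, 1.07e-06 and 1.88e-06). Cd4 was lower in blood by 1.38 ± 0.09 than in lymph node and by 0.82 ± 0.09 than in bone marrow (limma adjusted p = 3.59e-09 and 2.88e-06). Cd3e, Cd3g and Cd5 were lower in blood in all 5 comparisons, by 0.63 to 1.31, 0.66 to 1.28 and 0.66 to 1.26 on the log2 scale. After scaling to general T cell genes Cd3e no longer passed against bone marrow, spleen and liver (-0.22, -0.20 and -0.13, limma adjusted p = 0.0569, 0.0621 and 0.172). Cd5 no longer passed against spleen (-0.10, limma adjusted p = 0.252). Cd3d against bone marrow was the smallest difference called lower (-0.25 ± 0.09, limma adjusted p = 0.0383): leaving out any of the 6 blood or bone marrow libraries ended the call (adjusted p 0.0516 to 0.11), and the difference turned to 0.17 after scaling to general T cell genes. Cd247 was lower than in liver by 0.35 ± 0.10 (limma adjusted p = 0.0128), a call lost without liver replicate 3 (adjusted p = 0.0664) and turned to 0.48 by that scaling. The higher Cd28 of blood against bone marrow (0.29 ± 0.09, limma adjusted p = 0.0193) was lost without bone marrow replicate 3 or blood replicate 1 or 3 (adjusted p 0.0567 to 0.0913).

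How far these differences went with 9 general T cell genes (Cd2, Cd6, Thy1, Bcl11b, Rhoh, Ms4a4b, Ms4a6b, Ets1 and Sh2d1a) was examined by scaling. For each library, the deviation of each of the 9 from its own mean log2 level over the 18 libraries was taken. The library was then shifted by the median of these deviations. The 9 genes did not move together. Ms4a4b (1066 TPM) and Ms4a6b (580 TPM) had their highest mean in blood, where Cd2, Cd6, Thy1, Rhoh, Ets1 and Sh2d1a had their lowest. Cd2 (1055 TPM) and Ets1 (871 TPM) were highest in lung, where Bcl11b (45.9 TPM) was lowest. The scaling raised blood by 0.63 on the log2 scale, lung by 0.23 and bone marrow by 0.21, and lowered spleen by 0.12, liver by 0.20 and lymph node by 0.27. It moved the median of all genes tested in blood to 0.54 against lymph node, 0.60 against spleen, 0.77 against liver, 0.45 against lung and 0.22 against bone marrow. The median of the 10 genes became -0.38, -0.44, -0.16, -0.26 and -0.14 in that order. The shift moves every gene of a library together, so it says nothing about the distance between these 2 medians. Among all genes, 45.2% were then higher and 2.51% lower in blood than in lymph node, 46.8% and 3.16% than in spleen, 57.3% and 4.79% than in liver, 40.7% and 9.5% than in lung and 25.7% and 8.29% than in bone marrow. Under it, 4 of the 10 genes were lower in blood than in bone marrow, 6 than in spleen, 7 than in lymph node, 5 than in liver and 6 than in lung. Besides those of Cd3e and Cd5, calls ended without a turn of sign for Lck and Lat against bone marrow (-0.07 and -0.03), Cd3d against lymph node and liver (-0.22 and -0.04) and Cd247 against lymph node (-0.08), with limma adjusted p of 0.135 to 0.823. The sign turned without passing for Cd3d against bone marrow (0.17, limma adjusted p = 0.305) and Cd247 against spleen (0.10, 0.52). So it did for Lck (0.08, 0.444) and Lat (0.17, 0.109) against liver. Cd3d against lung became 0.00. The sign turned and passed for Cd247 against liver (0.48, 0.00184) and lung (0.36, 0.0157) and Cd28 against lymph node (0.46, 0.00329). Calls of higher in blood were gained for Cd247 against bone marrow (0.47, 0.00398) and Cd28 against spleen (0.77, 3.11e-05).

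**Figure D2:**
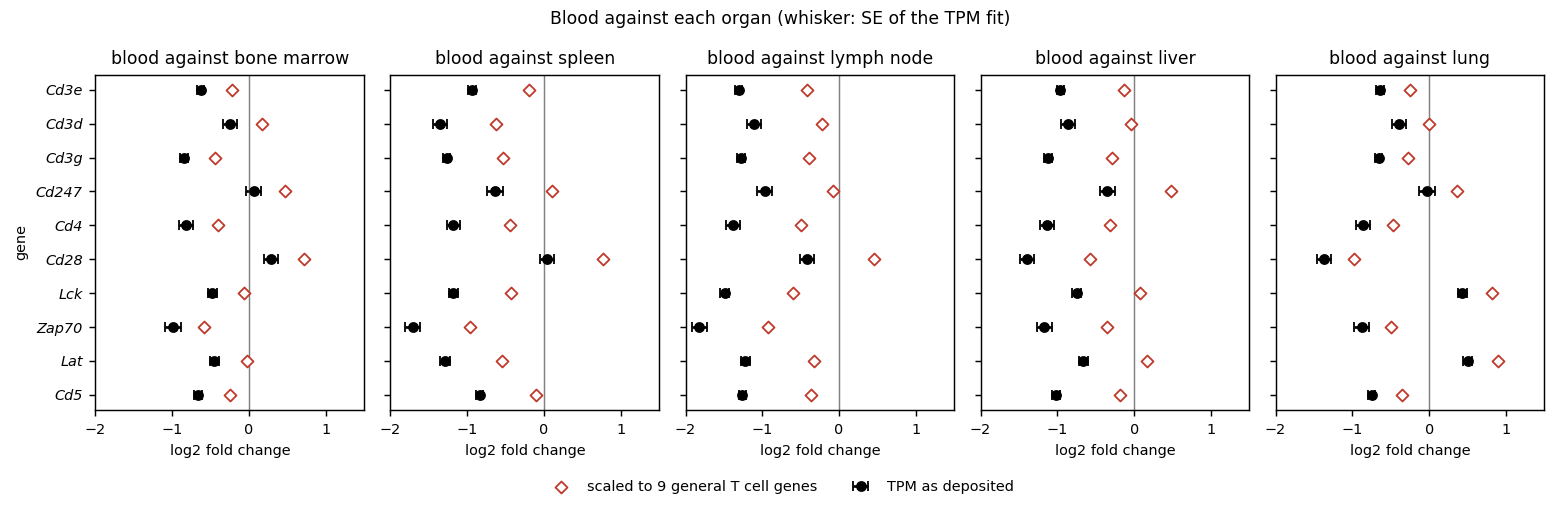
Log2 fold change of blood against each of 5 organs (horizontal axes, below 0 means lower in blood) for the 10 genes (vertical axis); filled points with whiskers are the fits on TPM with their SE, and open diamonds the same after scaling to 9 general T cell genes. Filled points lay below 0 except for Lck and Lat against lung and Cd28 and Cd247 against bone marrow and Cd28 against spleen; the diamonds lay further right, and those of Cd3d, Cd247, Cd28, Lck and Lat reached or passed 0 in at least 1 panel where the filled point was below it.

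The genes were also compared with each other inside a library. Each library was shifted so that Cd3e, Cd3d and Cd3g had the same mean, which asks how much kinase, adaptor or coreceptor RNA came with a given amount of CD3 RNA. RNA from cells that carry none of these genes does not move such a ratio. All 7 genes left to test differed among sites on this scale (F test, limma adjusted p 1.13e-11 for Cd28 to 0.0169 for Cd4), where 86.2% of all genes did. Background rates on this scale are high in 1 direction, since the shift moves every gene of a library together: 76% of all genes were higher in blood than in lymph node and 0.833% lower, 78% and 0.911% than in spleen, 72.3% and 2.88% than in liver, 52.2% and 6.52% than in lung, and 37.2% and 5.54% than in bone marrow. The median gene was higher in blood by 1.09, 1.19, 1.05, 0.68 and 0.47 in that order. Its difference against lung was 0.25 for bone marrow, -0.55 for spleen, -0.47 for lymph node and -0.42 for liver.

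Lung had little Lck and Lat for its CD3. Lck stood at 0.835, 0.840 and 0.873 times the CD3 mean in the 3 lung libraries and at 1.26 to 2.05 times in the other 15. Lat stood at 0.656, 0.645 and 0.595 times in lung and at 0.994 to 1.51 times elsewhere, so neither gene's lung libraries overlapped those of any other site. On the log2 scale Lck per CD3 was lower in lung by 1.24 ± 0.07 than in lymph node, 0.99 ± 0.07 than in blood and 0.76 ± 0.07 than in liver (SE, limma adjusted p = 3.75e-10, 4.75e-09 and 2.66e-07). Lat per CD3 was lower in lung by 1.17 ± 0.07 than in spleen, 1.07 ± 0.07 than in blood and 0.75 ± 0.07 than in liver (limma adjusted p = 1.12e-09, 2.96e-09 and 4.79e-07). On this scale 52.2%, 29.1%, 6.83%, 7.36% and 7.27% of all genes tested were lower in lung than in blood, bone marrow, spleen, lymph node and liver. Lung also differed by its epithelial markers and by the highest Treg gene sum of the 6 sites, most of it Ctla4. The part of these in the Lck and Lat ratios was not tested. With Cd3e alone as the reference the lung gaps were 0.85 to 1.30 for Lck and 0.84 to 1.49 for Lat.

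Cd28 ran the other way. It stood at 0.589 ± 0.037 times the CD3 mean in lung, 0.452 ± 0.052 in liver, 0.335 ± 0.021 in blood, 0.190 ± 0.004 in lymph node, 0.183 ± 0.006 in bone marrow and 0.143 ± 0.007 in spleen (SD, n = 3). Per CD3, Cd28 was thus higher in blood than in spleen by 1.23 ± 0.08, than in bone marrow by 0.87 ± 0.08 and than in lymph node by 0.81 ± 0.08 on the log2 scale (SE, limma adjusted p = 2.17e-09, 4.79e-07 and 3.06e-07), beside 1.19, 0.47 and 1.09 for the median gene. It was lower in blood than in lung by 0.80 ± 0.08 (adjusted p = 5.59e-07) and than in liver by 0.42 ± 0.08 (adjusted p = 0.00029). Liver lay 0.38 ± 0.08 below lung (limma adjusted p = 0.00141), which did not pass with Cd3e alone as the reference (adjusted p = 0.0622).

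Relative to CD3, Cd247 had its highest mean in blood and Zap70 its lowest. Cd247 stood at 0.648 ± 0.029 times the CD3 mean in blood and at 0.417 to 0.537 times on average elsewhere (n = 3 per site), higher in blood by 0.63 ± 0.12 than in bone marrow, 0.63 ± 0.12 than in liver, 0.55 ± 0.12 than in spleen and 0.53 ± 0.12 than in lung (SE, limma adjusted p 0.000161 to 0.00103). The excess of 0.27 over lymph node (limma adjusted p = 0.0448) was lost without any of 12 single libraries, all of spleen, lymph node, bone marrow and blood (adjusted p 0.0511 to 0.113) and with a pseudocount of 0.1 (0.0572). Only against bone marrow was the excess of Cd247 above that of the median gene; against the other 4 sites it was below it. Zap70 stood at 0.307 to 0.311 times in the blood libraries, below all but lung replicate 3 at 0.305. It was lower in blood than in lymph node by 0.58 ± 0.11, spleen by 0.52 ± 0.11 and bone marrow by 0.42 ± 0.11 (SE, limma adjusted p = 0.000158, 0.000382 and 0.00459). Against lung it was lower by 0.32 ± 0.11 (limma adjusted p = 0.017), a call lost without lung replicate 1 or 2 (adjusted p = 0.0844 and 0.0913) or with Cd3e alone as the reference (-0.25, adjusted p = 0.108), and against liver it passed only without lung replicate 3 (-0.19 in both fits, adjusted p = 0.113 and 0.00733). Natural killer cells carry Cd247 and Zap70 without surface CD3, and their markers, summed with those of CD8 T cells, were highest in blood; the part of such cells in the Cd247 ratio was not tested.

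Cd4 and Cd5 kept closest to CD3. Cd4 stood at 0.648 to 0.799 and Cd5 at 0.697 to 1.01 times the CD3 mean at the 6 sites. Blood had less Cd4 per CD3 than lung (-0.29 ± 0.08, limma adjusted p = 0.00735) and bone marrow (-0.24 ± 0.08, adjusted p = 0.0302), the latter lost without bone marrow replicate 1 or 2 or blood replicate 1 or 3 (adjusted p 0.0751 to 0.0956), and neither passed with Cd3e alone as the reference (adjusted p = 0.0627 and 0.137). Cd5 per CD3 was higher in blood than in spleen (0.35 ± 0.07, limma adjusted p = 0.000237), and not with Cd3e alone as the reference (0.09, adjusted p = 0.202). Its lower level against lung (-0.19 ± 0.07, limma adjusted p = 0.0247) was lost without lung replicate 1, blood replicate 1 or blood replicate 3 (adjusted p 0.0592 to 0.127), with library weights (0.0549) and with Cd3e alone as the reference (-0.11, adjusted p = 0.138). In counts, 3 of the 7 genes were higher and 4 lower in blood than in lung per CD3, 3 and 1 than in spleen and in liver, and 2 and 2 than in lymph node and in bone marrow.

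**Figure D3:**
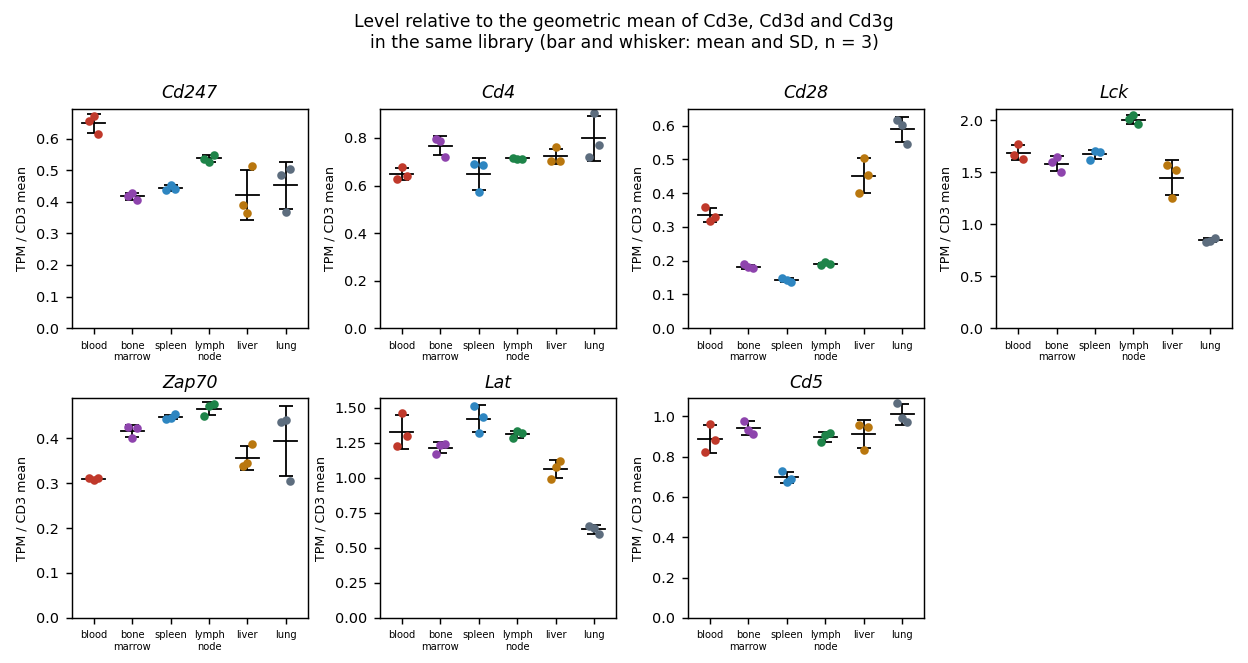
Level of 7 genes divided by the geometric mean of Cd3e, Cd3d and Cd3g in the same library (vertical axes, linear, from 0) at 6 sites (horizontal axes); points are libraries, the bar is the mean and the whisker the SD (n = 3). Lck and Lat were lowest and Cd28 was highest in lung, and Cd247 was highest in blood, where Zap70 was lowest on average.

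Over the 18 libraries, which share 6 sites and are not independent points, the genes' log2 levels were correlated pair by pair. Lck and Lat had a Pearson r of 0.973, and 0.927 after the shift to equal CD3. Cd3e and Cd5 had 0.975, Cd3g and Zap70 0.957, and Cd3e and Cd4 0.957. Of 45 pairs, 10 exceeded 0.9. Apart from Lck with Lat, these all lay among Cd3e, Cd3g, Cd4, Cd5 and Zap70, where only Cd5 with Zap70 fell short (0.892). With the mean of the other 9 genes, Cd28 had an r of 0.027, Lat 0.739, Lck 0.784, Cd247 0.812 and the remaining 6 genes 0.909 to 0.956. Outside the 10, the genes most like their mean over the 18 libraries were the ribosomal protein gene Rpl3 (r = 0.950), Nrn1 (0.950), the chaperonin subunit Cct2 (0.947), the nonclassical class I gene H2-T22 (0.943) and the ribosomal protein gene Rpl29 (0.941). Nrn1, which encodes the secreted protein neuritin, was at 2.60 ± 0.55 TPM in blood, 9.72 ± 1.73 in lung, 11.2 ± 0.3 in bone marrow and 21.8 to 23.8 on average in spleen, liver and lymph node (SD, n = 3). After scaling to general T cell genes Nrn1 had an r of 0.645 and Rpl3 of 0.016, and the sign turned for the other three.

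The wider pathway was read from 64 genes in 7 lists, all of which passed the expression minimum; 62 differed among sites by the F test, which called 68% of all genes. They were divided in blood. Against bone marrow 20 were higher and 22 lower (13% and 18.8% of all genes), against spleen 20 and 24 (20.1% and 15.3%), against liver 22 and 30 (23.3% and 16.1%), and against lung 29 and 25 (26.4% and 17.3%). Against lymph node the counts were 10 and 33 (16.4% and 21%). Their medians in that order were -0.05, 0.02, -0.09, 0.27 and -0.39 on the log2 scale, beside -0.11, 0.00, 0.07, 0.12 and -0.15 over all genes tested. After scaling to general T cell genes the split became 34 higher and 8 lower against bone marrow (25.7% and 8.29% of all genes). It was 44 and 9 against spleen (46.8% and 3.16%) and 45 and 10 against liver (57.3% and 4.79%). Against lung it was 37 and 17 (40.7% and 9.5%), and against lymph node 35 and 11 (45.2% and 2.51%). All 64 then passed the F test, for which the share of all genes under this scaling was not taken.

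Among the receptor's constant genes, 6 of 7 differed among sites. Trac, the alpha chain constant gene, was at 389 ± 9 TPM in blood, 823 ± 76 in lung and 1060 to 1256 on average at the other 4 sites (SD, n = 3; limma F test adjusted p = 1.77e-10). Trbc2, a beta chain constant gene, was at 1101 ± 13 TPM in blood and 2506 ± 37 in spleen (adjusted p = 4.04e-11). Reads of Trbc2 can be shared with its near copy Trbc1. Tcrg-C1, a gamma chain constant gene that alpha-beta T cells do not need, was at 15.9 ± 2.0 TPM in blood and 13.7 ± 0.9 in lymph node against 1.33 ± 0.73 in bone marrow. Trac and Trbc2 thus had their lowest mean TPM in blood, as did Cd3e, Cd3d and Cd3g.

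All 6 further coreceptor and costimulator genes differed among sites. Icos, a costimulator of the Cd28 family, was highest in lung at 422 ± 11 TPM, then liver at 301 ± 11 and lymph node at 176 ± 3, and lower in marrow (89.9 ± 2.9), spleen (71.0 ± 5.5) and blood (30.7 ± 2.2) (SD, n = 3; limma F test adjusted p = 2.34e-15). As with Cd28, liver and lung held the highest means. Cd2, an adhesion receptor that is also among the 9 scaling genes, was at 1055 ± 28 TPM in lung, 683 to 717 on average in liver, spleen and lymph node, 551 ± 2 in bone marrow and 332 ± 2 in blood. Cd8a, the coreceptor of other T cells, did not exceed a mean of 18.8 TPM at any site.

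All 7 further kinases differed. Csk, the kinase that holds Lck inactive, was lowest in lung, as was Lck, at 153 ± 14 TPM against 385 ± 11 in lymph node (SD, n = 3). Syk, the relative of Zap70 used by B cells and myeloid cells, was at 154 ± 7 TPM in blood, 72.5 ± 1.7 in bone marrow, 25.5 to 28.0 on average in lung and spleen and 5.60 to 8.09 in liver and lymph node. Fcer1g, a signal chain of myeloid and natural killer cells related to Cd247, averaged 464 ± 28 TPM in blood, 169 ± 2 in marrow, 40.3 ± 7.9 in lung and 1.23 to 15.6 on average in spleen, liver and lymph node. Blood and bone marrow were highest in Syk, in Fcer1g and in the myeloid marker sum. That sum was higher in bone marrow (38410 TPM on average) than in blood (26960), while Syk and Fcer1g were higher in blood. S100a8 and S100a9 made up most of the sum in bone marrow, at 12870 and 20700 TPM. These, Ly6g, Elane and Mpo were higher in bone marrow than in blood. Lyz2, Csf1r, Itgam, Csf3r, Fcgr3, Tyrobp, Cybb and Cd14 were higher in blood. The sum of CD8 T and natural killer cell markers was highest in blood. The part of myeloid or natural killer RNA in Syk and Fcer1g was not tested.

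Of the adaptors, 15 of 16 differed. Lax1, a membrane adaptor that limits receptor signalling, resembled Lat, at 95.4 ± 4.9 TPM in spleen, 91.5 ± 1.8 in lymph node, 64.8 ± 2.3 in liver, 53.2 ± 2.6 in bone marrow, 36.7 ± 0.2 in blood and 20.4 ± 0.9 in lung (SD, n = 3; limma F test adjusted p = 2.08e-12). Fyb, the adaptor that links the receptor to integrins, was highest in lung at 783 ± 83 TPM and lowest in spleen at 386 ± 18. Sit1, an inhibitory membrane adaptor, was lowest in blood at 22.8 ± 5.1 TPM and highest in bone marrow at 94.5 ± 2.6.

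All 14 effectors differed. Plcg1, the phospholipase recruited to Lat, was at 242 ± 7 TPM in lymph node, 217 ± 35 in liver, 142 to 147 on average in spleen and bone marrow, 89.5 ± 1.3 in blood and 75.5 ± 16.8 in lung (SD, n = 3; limma F test adjusted p = 2.22e-08). Vav1, an exchange factor at the same scaffold, was at 38.5 ± 5.8 TPM in lung, 67.9 ± 5.3 in liver and 112 to 132 on average elsewhere. Itpkb, a kinase of inositol trisphosphate, had its highest mean in lung, 227 ± 8 TPM, and its lowest in blood, 69.7 ± 0.7. All 13 negative regulators differed too. Ptpn6, the phosphatase SHP-1, was at 45.5 ± 18.8 TPM in lung, 85.8 ± 4.9 in liver, 208 to 255 on average in bone marrow, lymph node and spleen and 374 ± 6 in blood. Ptprc (CD45), the phosphatase that primes Lck, was highest in blood at 1227 ± 36 TPM, with site means of 728 to 955 elsewhere. Both are carried by most blood cells, myeloid cells included. Dusp22, a phosphatase that acts on Lck, was at 24.1 ± 1.5 TPM in blood and 3.35 to 6.31 on average elsewhere. The lung thus combined the lowest means of Lck, Lat, Cd8a, Csk, Lax1, Plcg1, Vav1 and Ptpn6 with the highest means of Icos, Cd2, Fyb and Itpkb. For Plcg1 the lung libraries (62.7 to 94.5 TPM) overlapped those of blood (88.3 to 90.9). For Cd8a they (1.17 to 3.01 TPM) overlapped those of liver (1.78 to 5.19). This list was drawn up after the values were seen and was not tested as a group.

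**Figure D4:**
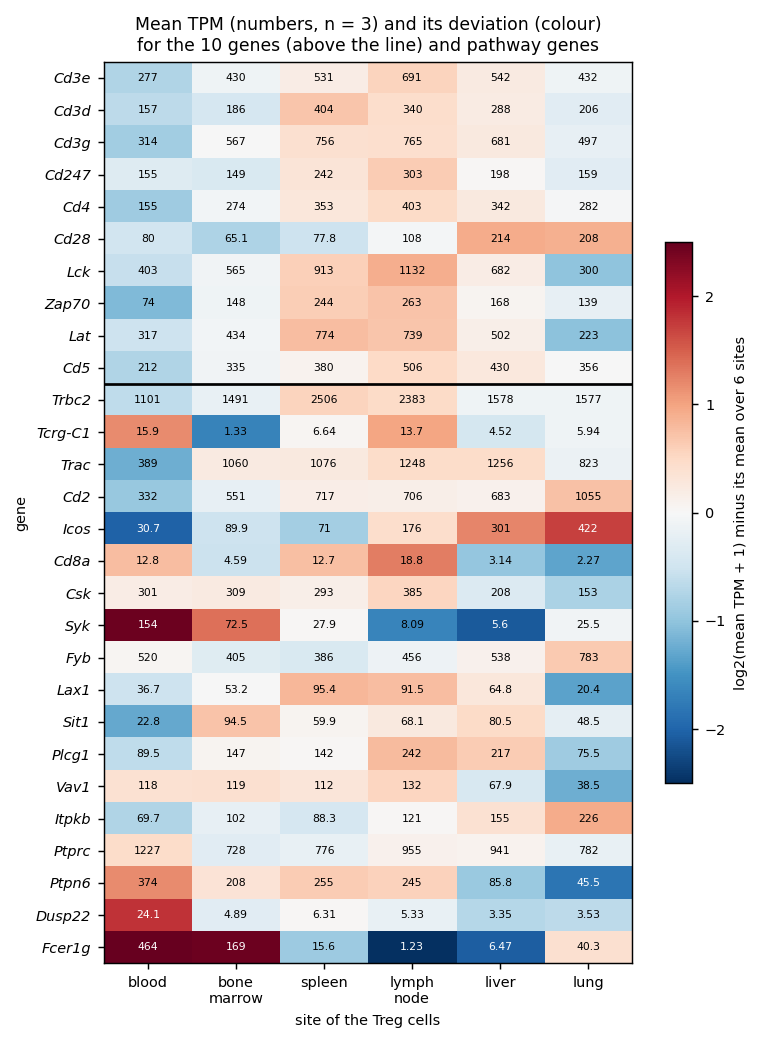
Mean TPM (numbers, n = 3) of the 10 genes (above the line) and 18 pathway genes (below it) at 6 sites; colour gives log2(mean TPM + 1) minus the gene's mean over the sites. In the lung column Lck, Lat, Lax1, Vav1 and Ptpn6 were the lowest of their rows and Icos and Itpkb the highest. In the blood column Syk, Fcer1g and Dusp22 were the highest and 6 of the 10 genes the lowest of their rows in TPM. Of these 6, Cd3d turned to 0.17 against bone marrow (limma adjusted p = 0.305) and became 0.00 against lung after scaling to general T cell genes.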

How the data were processed

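Poly(A) RNA of freshly prepared Treg cells was sequenced from directional libraries, per the labels' protocols. The authors deposited 1 table of TPM values per library for 55487 Ensembl IDs. The submitters' processing notes name STAR, RSEM and mm10. TPM keeps no depth, so no counting interval can be given. A library had 14314 to 19797 genes above 0, fewest in liver, and the median coefficient of variation of genes of at least 100 TPM was 10.5% in liver, 8.0% in lung and 2.55% to 5.24% elsewhere. No 2 of the 18 tables were identical.

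The 16694 genes whose mean reached 1 TPM at 1 or more sites were fitted with limma 3.58.1 in R 4.3.3 on log2(TPM + 1), with a mean per site over all 18 libraries, trend and robust settings and 15 pairwise contrasts. P-values were adjusted by Benjamini-Hochberg over all genes of a contrast, and 0.05 was the threshold. Fold changes are on the log2(TPM + 1) scale and understate those of low genes. The fit was tested on simulated data. The 10 genes and all lists were chosen with earlier results of these data known. Named besides the 10 are, per list, the most abundant gene and the 2 with the widest range of site means among genes called by the F test and reaching 10 TPM, and the 5 genes most correlated with the mean of the 10; 1 gene named by this rule is not reported here. Alternatives were another pseudocount, no filter, library weights, a replicate block, median ratio factors, removal of abundant RNA classes, T cell scaling, Cd3e alone as the CD3 reference, fits of 2 sites, each library left out and, chosen after seeing the data, no liver libraries. Whether shared replicate numbers pair the samples was checked. Over 45 same-numbered pairs the deviations from the site means correlated at -0.03 to 0.03, and over 90 differently numbered pairs at -0.03 to 0.04. No pairing was detected, but the check cannot exclude it, since libraries that differ only technically would show none.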

Additional observations from a re-analysis of the deposited data

How the results depend on the processing

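Scaling to the 9 general T cell genes changed most. Under it, the genes called higher and lower in blood became 2 and 4 against bone marrow and 1 and 5 against liver, and 1 was higher against spleen and against lymph node; the pathway lists became 34 and 8, 44 and 9, 35 and 11, and 45 and 10 against bone marrow, spleen, lymph node and liver. The shares of all genes called under this scaling are given above. Signs turned in blood for Cd3d against bone marrow (0.17) and Cd247 against spleen (0.10), liver (0.48) and lung (0.36). They also turned for Cd28 against lymph node (0.46) and for Lck (0.08) and Lat (0.17) against liver. Of these, only Cd247 against liver and lung and Cd28 against lymph node passed. Cd3d in blood against lung became 0.00. In bone marrow signs turned for Cd28 against spleen (0.07) and for Cd3g (0.15), Lck (0.14) and Lat (0.20) against liver, and none passed. Against lung they turned for Cd3e (-0.05) and Cd5 (-0.26) in spleen and Cd247 (-0.12), Cd4 (-0.16) and Cd28 (-0.40) in liver. Of these lung differences only those of Cd5 and Cd28 passed. Correlations turned for Cct2 (-0.153), H2-T22 (-0.168) and Rpl29 (-0.016). With Cd3e alone as the CD3 reference, 1, 4 and 1 genes were lower in blood than in bone marrow, spleen and lung, and signs turned for Cd4 (-0.25) and Lck (-0.24) against spleen and for Lck in spleen against lymph node (0.07). A pseudocount of 0.1 left 1 gene higher per CD3 against lymph node. Shares of all genes are not given for the counts with Cd3e alone or with this pseudocount per CD3. Those counts therefore have no background to be read against. Median ratio factors turned Cd3g for bone marrow against lung (-0.03) and spleen against lymph node (0.18). With them Cd3e, Cd3d, Cd4 and Cd5 passed as lower in bone marrow than in lung (limma adjusted p 9.37e-05 to 0.0291). Lat then passed as higher in spleen than in lymph node (limma adjusted p = 0.0116). The cause of these changes was not tested. The low Lck and Lat of lung passed in every alternative run, against each site that alternative included.

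With each library left out in turn, the genes higher in blood than in bone marrow numbered 0 to 1. Per CD3, 1 to 2 were higher against lymph node, and lower were 1 to 2 against bone marrow, spleen and liver and 2 to 4 against lung. Shares of all genes are not given for these fits. Of 201 single differences, 24 gained or lost their call without some library; where the report states such a difference, the libraries are named there. With the replicate block no count moved by over 1.5 times, and 3 calls were lost: Cd28 in bone marrow against spleen (adjusted p = 0.0591), Cd247 in spleen against lymph node (0.0502) and Cd3g in spleen against liver (0.055). Depth is unknown, and 3 libraries per site limit the precision.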
